A study of Saccharomyces cerevisiae with 6 samples.

Results

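The 7 genes described here make and break trehalose in Saccharomyces cerevisiae. They were chosen by their open reading frame identifiers and by no cut on a measured value, but with earlier results of these data known. TPS1 (YBR126C), TPS2 (YDR074W), TPS3 (YMR261C) and TSL1 (YML100W) serve synthesis, and NTH1 (YDR001C), NTH2 (YBR001C) and ATH1 (YPR026W) breakdown. All 7 were found among the 6696 reading frames counted, and all 7 passed the filter on low counts. RNA-seq (stranded, after removal of ribosomal RNA) was carried out on strain BY4741 (wild type) and on BY4741 cyc8[delta]::kanMX4, in which a drug resistance cassette replaces CYC8. Cells spent 3 h in rich medium of 2% peptone and 1% yeast extract with either 2% glucose (YPGlc) or 2% mannose (YPMan). There are 6 libraries in 4 groups, wild type in glucose (2 libraries) and in mannose (1), and the deletion in glucose (2) and in mannose (1). The deletion is a single strain and the time in sugar a single time point. The sources used here do not say whether the glucose replicates are separate cultures. The p-values thus measure the spread between these libraries, which may be technical. That spread is estimated mostly over many genes (2 residual and 86.7 prior degrees of freedom). An SE or p-value therefore rests little on a gene's own replicates.

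Trehalose is a disaccharide of glucose that yeast stores as a reserve and as a protectant of proteins and membranes under heat, desiccation and starvation. Tps1 joins glucose 6-phosphate to UDP-glucose to give trehalose 6-phosphate, and Tps2 removes the phosphate. Both sit in a complex with the related subunits Tsl1 and Tps3, which have regulatory roles. The neutral trehalase Nth1, with its paralog Nth2, splits trehalose in the cytosol, and the acid trehalase Ath1 acts on trehalose outside the cytosol. Cyc8 and Tup1 form a corepressor that DNA-binding proteins bring to many genes, among them genes kept low in glucose.

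The libraries held 26195734 to 44084216 counts. CYC8 stood at 197 to 207 CPM (counts scaled to the library total) in the wild-type libraries and at 2.17 to 7.92 CPM in the deletion libraries. The auxotrophic markers LEU2, MET17 and URA3 had 0 counts in every library, which by counting error alone allows at most 0.0667 to 0.132 CPM. A further auxotrophic marker, HIS3, was not at 0. Its group means were 45.7 CPM in wild type in glucose, 32.7 in wild type in mannose, 32.8 in the deletion in glucose and 25.6 in the deletion in mannose. In the wild-type libraries STE2, the pheromone receptor gene of mating type a cells, stood at 163 to 261 CPM. The alpha-type receptor gene STE3 stood at 2.85 to 3.11 CPM there. Of the other a-type genes, MFA2 was at 9.35 to 23.2 CPM and MFA1 at 2.54 to 3.85 CPM, as low as STE3 in CPM. Per kb of coding length the means in wild type in glucose were 29.0 for MFA1 and 2.13 for STE3. The other alpha-type genes, MF(ALPHA)1 and MF(ALPHA)2, had means of 0.22 and 0.062 CPM in that group. In the deletion libraries STE2 stood at 16.4 to 50.8 CPM and STE3 at 0.264 to 0.55 CPM. The 7 trehalose genes took 0.0625% and 0.0653% of all counts in wild type in glucose, 0.126% in wild type in mannose, 0.214% and 0.217% in the deletion in glucose and 0.466% in that strain in mannose. Mannose was sampled with 1 library per strain, without replicate error, and tests that involve it use the variation seen between the glucose replicates. Levels below are the same CPM per kb of coding length, so that genes of different length can be set side by side. A rise or fall is called at an adjusted p under 0.05 in the quasi-likelihood test of edgeR, adjusted by Benjamini and Hochberg's method over 6146 reading frames. In bulk RNA, fewer cells expressing a gene and less RNA per cell cannot be told apart.

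Transcripts of all 7 genes were lowest in wild type in glucose. Without CYC8 in glucose all 7 rose, by 1.53-fold (TPS3) to 5.07-fold (TSL1). Over all genes tested, 30.1% were called higher and 37.8% lower in that comparison. The median log2 change was 1.32 over the 7 genes and −0.08 over all genes tested. After 3 h in mannose all 7 rose in wild type as well, by 1.24-fold (TPS3) to 2.85-fold (TSL1), against 20.5% of all genes called higher and 16.9% lower (medians 0.74 and 0.02). In the deletion 6 of 7 rose further in mannose, the exception being TPS3, against 37.6% higher and 39.7% lower (medians 1.49 and −0.04). With upper-quartile scaling the higher share of all calls in that comparison went from 48.6% to 37.4% and the median of all genes moved by −0.26. Between the genotypes in mannose all 7 were called higher in the deletion, against 38.3% of all genes higher and 41.1% lower (medians 2.01 and −0.07). With the biological coefficient of variation fixed at 0.2 in place of the estimated spread, 5 of the 7 genes were called without CYC8 in glucose, 2 in wild type in mannose (TPS2 and TSL1), 5 in the deletion in mannose and 5 between the genotypes in mannose. In the last of these the upper-quartile factors took the higher share of calls from 48.2% to 37.1% and moved the median by −0.32.

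**Figure D1:**
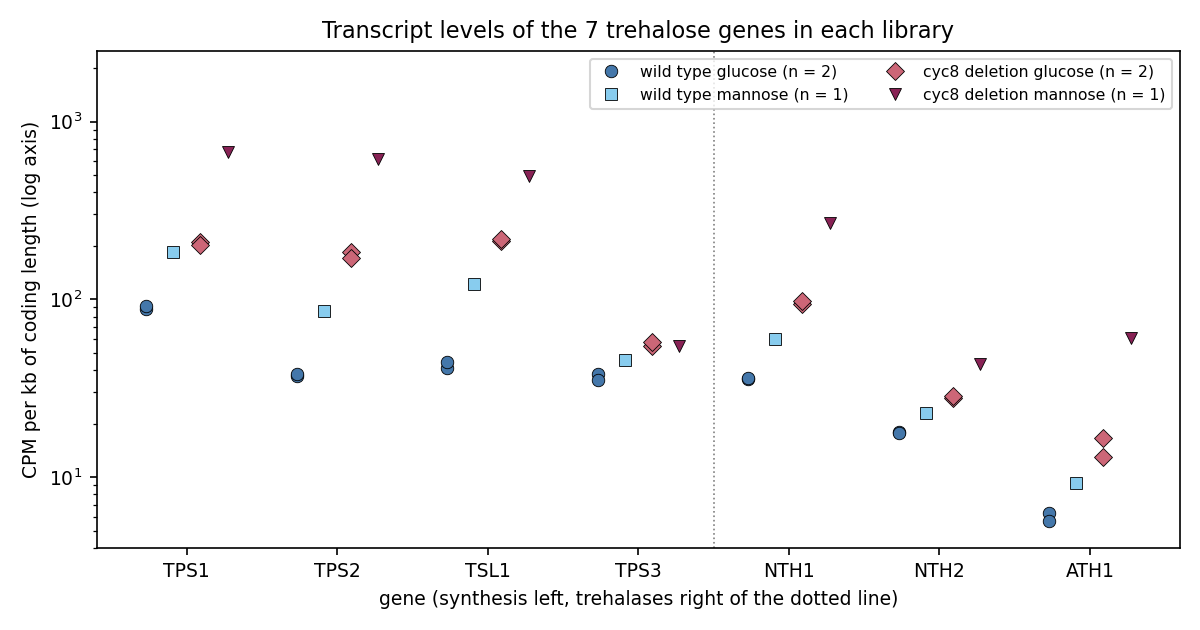
Level of each trehalose gene in each of the 6 libraries, in CPM per kb of coding length on a log axis, with 1 point per library and synthesis genes to the left of the dotted line. Wild type in glucose is lowest for each gene, and the deletion in mannose is highest for each except TPS3, where it falls between the deletion libraries in glucose.

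TPS1 (chromosome II, 488905 to 490392, minus strand, 1 coding exon, build R64, which sacCer3 denotes) encodes the synthase. It stood at 87.7 and 92.0 CPM per kb in wild type in glucose, 185 in wild type in mannose, 209 and 202 in the deletion in glucose, and 672 in the deletion in mannose. In glucose the replicates of each genotype lay closer together than the genotypes did. The share of all genes with such a gap was not counted. Mannose groups of 1 library have no spread, so overlap with them cannot be judged. The log2 fold change of TPS1 without CYC8 was 1.19 ± 0.08 (SE) in glucose (adjusted p = 1.15e-25) and 1.86 ± 0.11 with mannose as sugar (adjusted p = 2.90e-28). Mannose raised it by 1.05 ± 0.09 in wild type (adjusted p = 2.78e-17) and by 1.71 ± 0.09 in the deletion (adjusted p = 6.81e-32). Mannose in wild type and loss of CYC8 in glucose brought TPS1 to levels 0.15 ± 0.09 apart on the log2 scale, which was not called (adjusted p = 0.164) but was called at 0.20 and 0.24, higher in the deletion, when either deletion glucose replicate was left out, and was −0.11, not called, without the trends described next. TPS1 had the highest GC content of the 7 genes (45.2%). Once trends of the counts with coding length and GC content had been taken out, its genotype changes were 0.67 in glucose and 0.96 in mannose, and its mannose changes 0.78 in wild type and 1.08 in the deletion, all 4 still called.

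TPS2 (chromosome IV, 593893 to 596583, plus strand, 1 coding exon) encodes the phosphatase. Its levels were 37.2 and 38.1 CPM per kb in wild type in glucose, 85.8 in wild type in mannose, 184 and 170.2 in the deletion in glucose, and 614 in the deletion in mannose. In glucose its replicates lay closer together than the genotypes did. TPS2 had the largest genotype change of the 7 genes in mannose, 2.84 ± 0.12 (7.15-fold, adjusted p = 2.80e-39), and stood at 2.23 ± 0.08 in glucose (4.70-fold, adjusted p = 2.89e-43). TPS2 was higher in the deletion in glucose than in wild type in mannose, by 1.04 ± 0.10 (adjusted p = 5.69e-16). In wild type in glucose the phosphatase gene stood at 0.425 and 0.414 of the synthase gene per kb. In the deletion in mannose that ratio was 0.914.

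**Figure D2:**
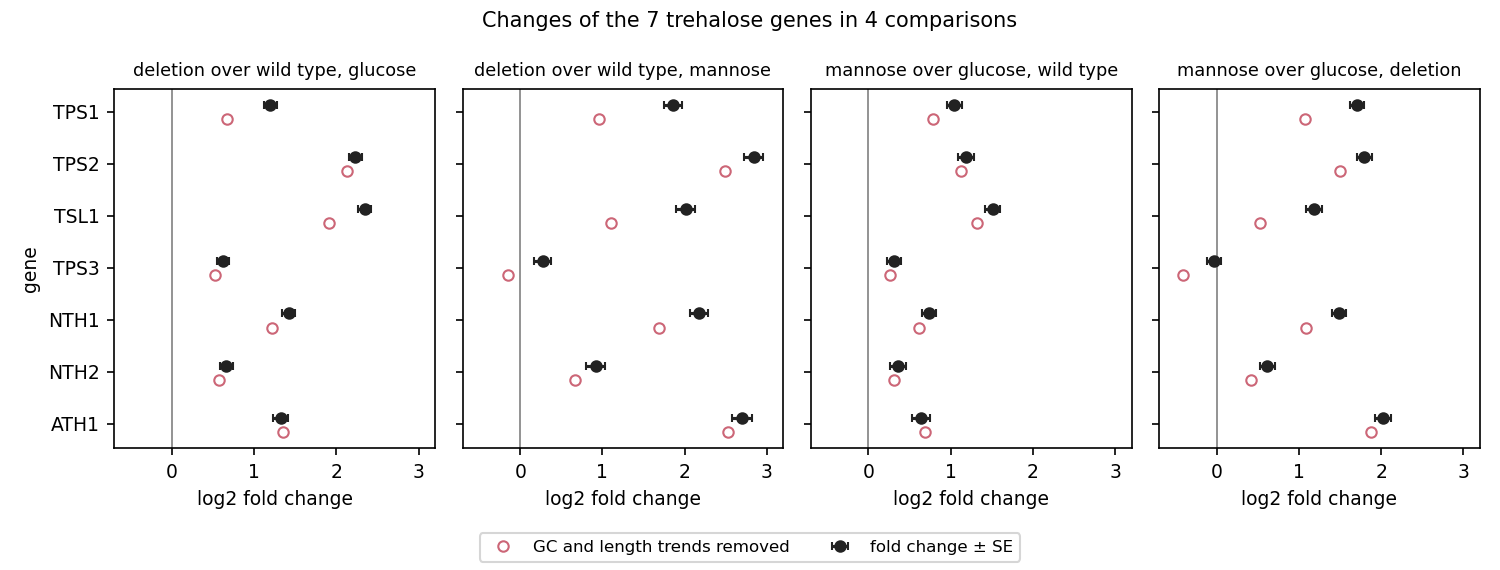
Log2 fold changes of the 7 genes in 4 comparisons (filled points, bars give ± SE, from edgeR over all 6 libraries) and with the GC and length trends removed (open points). TPS1 and TSL1, the genes of highest GC content, move the most between filled and open points, and TPS3 lies nearest to 0 in each panel.

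TSL1 and TPS3, on different arms of chromosome XIII, are paralogs for the large regulatory subunits. Their coding sequences shared 65.9% of aligned bases and no exact run longer than 15 bases, so reads of the pair can be told apart. TSL1 (70624 to 73920, plus strand, 1 coding exon) stood at 41.2 and 44.3 CPM per kb in wild type in glucose, 122 in wild type in mannose, 214 and 219 in the deletion in glucose, and 491 in the same strain in mannose. TPS3 (790205 to 793369, minus strand, 1 coding exon) stood at 37.9 and 35.3, 45.3, 54.4 and 57.8, and 54.9 CPM per kb in the same order. The pair were thus near each other in wild type in glucose and far apart elsewhere. Per library, the log2 ratio of TSL1 to TPS3 was 0.12 and 0.33 in wild type in glucose, 1.42 in wild type in mannose, 1.98 and 1.92 in the deletion in glucose and 3.16 in the deletion in mannose.

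TSL1 had the largest rise of the 7 genes without CYC8 in glucose, 2.34 ± 0.08 (adjusted p = 2.09e-44), and in mannose in wild type, 1.51 ± 0.09 (adjusted p = 1.98e-25). In the deletion mannose raised it by 1.18 ± 0.09 (2.27-fold, adjusted p = 1.15e-20), which went to 0.52 (1.44-fold, still called) without the GC and length trends. Between the genotypes in mannose it stood at 2.01 ± 0.12 (4.04-fold), and at 1.11 (2.15-fold) without those trends, also called. The GC content of TSL1 is 43.7%.

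TPS3 had the smallest change of the 7 in each of these comparisons. It rose by 0.62 ± 0.07 without CYC8 in glucose (adjusted p = 2.47e-12) and by 0.31 ± 0.09 in mannose in wild type (adjusted p = 0.00324). The latter was not called without wild-type glucose replicate 2 (0.26, adjusted p = 0.129). In the deletion its change in mannose was −0.03 ± 0.09 (adjusted p = 0.761), and called lower at −0.29 with upper-quartile factors and at −0.41 without the GC and length trends. Relative to the median of all genes it stood at 0.0076 in the main scaling and 0.0075 with upper-quartile factors, and at −0.26 without the trends. Between the genotypes in mannose TPS3 was called higher (0.28 ± 0.10, adjusted p = 0.0121), but that value was −0.045 with upper-quartile factors and −0.14 without the trends, neither called.

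The sequences upstream of both paralog pairs are shown because the copies of each pair differed in how far they changed. The binding site of the stress activators Msn2 and Msn4, the stress response element, reads AGGGG or, on the other strand, CCCCT. It is in capitals in the 300 bases that lie 400 to 101 bases before the start codon, on the coding strand, read from the R64 genome. For TSL1 these are chrXIII:70224-70523 (plus strand) and for TPS3 chrXIII:793470-793769 (minus strand).
TSL1: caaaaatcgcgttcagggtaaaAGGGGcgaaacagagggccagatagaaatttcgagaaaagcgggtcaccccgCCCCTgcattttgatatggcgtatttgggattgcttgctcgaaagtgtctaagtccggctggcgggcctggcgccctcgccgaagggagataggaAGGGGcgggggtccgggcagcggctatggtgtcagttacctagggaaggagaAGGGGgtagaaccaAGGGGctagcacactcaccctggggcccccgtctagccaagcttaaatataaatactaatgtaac
TPS3: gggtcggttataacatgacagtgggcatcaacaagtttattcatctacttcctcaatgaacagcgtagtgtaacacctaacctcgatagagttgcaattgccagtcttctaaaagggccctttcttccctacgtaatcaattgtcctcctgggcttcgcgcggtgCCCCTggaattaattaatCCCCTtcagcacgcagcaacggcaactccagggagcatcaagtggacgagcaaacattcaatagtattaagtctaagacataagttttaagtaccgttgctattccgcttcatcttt
The TSL1 window held 5 such elements and the TPS3 window 2. Of 6007 windows cut in the same way before nuclear reading frames, 23.6% held at least 1, 4.15% at least 2 and 0.0499% (3 windows) at least 5. The 3 are those of TSL1, TPS1 and CUE4, the last of which shares 265 bases with the TSL1 window. In the TSL1 window 88 bases lie in the reading frame YML100W-A, and in the TPS3 window 44 bases lie in YMR262W. Sites of the Mig1 type (NNGGGG with GC, GT, CC or CT as its first bases, either strand), after a repressor that recruits Cyc8 and Tup1, numbered 3 before TSL1, 2 of them overlapping a stress element, and 0 before TPS3, with at least 1 in 14.8% of windows. CCCTC, the core bound by the repressor Nrg1, was present 2 times before TSL1 and 0 times before TPS3, with at least 1 in 23.9% of windows. A match of letters is not a site in use, and binding was not measured.

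NTH1 (chromosome IV, 450220 to 452475, minus strand, 1 coding exon) encodes the main neutral trehalase, an enzyme that protein kinase A and 14-3-3 proteins activate. It stood at 35.6 and 36.0 CPM per kb in wild type in glucose, 59.7 in wild type in mannose, 94.4 and 97.3 in the deletion in glucose, and 269 in the deletion in mannose. Its replicates in glucose lay closer together than the genotypes did. Its log2 fold change without CYC8 was 1.42 ± 0.08 in glucose (adjusted p = 2.10e-31) and 2.17 ± 0.11 with mannose as sugar (adjusted p = 1.61e-33). Mannose raised NTH1 by 0.74 ± 0.09 in wild type (adjusted p = 4.83e-11) and by 1.49 ± 0.09 in the deletion (adjusted p = 8.89e-29).

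NTH2 (chromosome II, 238941 to 241283, minus strand, 1 coding exon), its paralog, stood at 17.9 and 17.6, 22.8, 27.7 and 28.5, and 43.1 CPM per kb in the same order of groups. Its levels spanned a smaller range than those of NTH1. NTH2 rose by 0.66 ± 0.08 without CYC8 in glucose (adjusted p = 2.61e-12) and by 0.92 ± 0.11 with mannose as sugar (adjusted p = 3.10e-12). The coding sequences of the pair shared 72.3% of aligned bases, with a longest exact run of 33 bases, so a short read inside that run could not be placed, and the handling of such reads was not described. The NTH1 to NTH2 ratio went from 1.98 and 2.05 in wild type in glucose to 2.62 in wild type in mannose, 3.41 and 3.42 in the deletion in glucose and 6.23 in the deletion in mannose. In both paralog pairs 1 copy thus spanned a wider range than the other.

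The windows before the trehalase pair are shown for the same reason, with the same element in capitals: chrIV:452576-452875 for NTH1 and chrII:241384-241683 for NTH2, both on the minus strand.
NTH1: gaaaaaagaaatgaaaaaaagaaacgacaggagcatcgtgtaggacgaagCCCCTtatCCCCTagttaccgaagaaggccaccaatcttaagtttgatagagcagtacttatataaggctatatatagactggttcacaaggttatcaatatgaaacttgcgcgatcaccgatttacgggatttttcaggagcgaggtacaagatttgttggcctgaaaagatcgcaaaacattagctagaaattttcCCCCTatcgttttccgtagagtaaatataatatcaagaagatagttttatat
NTH2: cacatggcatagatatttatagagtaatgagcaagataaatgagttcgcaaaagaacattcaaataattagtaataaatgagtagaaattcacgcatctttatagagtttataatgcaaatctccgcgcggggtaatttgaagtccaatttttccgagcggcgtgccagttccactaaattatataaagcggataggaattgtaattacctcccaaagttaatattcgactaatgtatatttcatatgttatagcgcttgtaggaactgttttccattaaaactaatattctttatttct
The NTH1 window held 3 elements, a count reached by 0.816% of all windows, and the NTH2 window held 0. Neither held CCCTC, and NTH2 held 1 Mig1-type match. Among the other members the window of TPS1 held 5 elements, 1 Mig1-type match and 3 matches of CCCTC, a number of the last reached by 0.383% of windows. The TPS2 window held 1 element and 1 CCCTC, and the ATH1 window 1 element with an overlapping CCCTC. The relation of these matches to the changes was not tested.

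ATH1 (chromosome XVI, 615379 to 619014, plus strand, 1 coding exon), for the acid trehalase, was the least abundant of the 7. It stood at 6.31 and 5.63 CPM per kb in wild type in glucose, 9.30 in wild type in mannose, 13.0 and 16.6 in the deletion in glucose, and 60.4 in the deletion in mannose. The deletion replicates in glucose were farther apart than for the other genes, yet both lay above the wild-type libraries in glucose. Its rise in mannose in the deletion was the largest of the 7, 2.02 ± 0.09 (4.06-fold, adjusted p = 2.90e-35), against 0.64 ± 0.11 (1.56-fold, adjusted p = 4.56e-07) in wild type. Without CYC8 it rose by 1.32 ± 0.09 in glucose (adjusted p = 2.71e-25) and by 2.70 ± 0.12 with mannose as sugar (adjusted p = 8.55e-37). With a GC content of 38.4%, the lowest of the 7, it moved little when the GC and length trends were removed (1.87 in the deletion in mannose).

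Genes of both synthesis and breakdown rose in each comparison. The summed counts per kb of the 4 synthesis genes were 3.41 and 3.54 times those of the 3 trehalase genes in wild type in glucose. That ratio was 4.77 in wild type in mannose, 4.89 and 4.56 in the deletion in glucose, and 4.92 in the deletion in mannose. Between glucose replicates the SD of the log2 ratio was 0.04 in wild type and 0.07 in the deletion (n = 2 each). Wild type in glucose stood below the other 4 libraries, which lay within a narrow band. The ratio is taken within a library and does not depend on scaling between libraries. The GC and length trends were not removed from it. Between the genotypes in mannose, removing them lowered the change of TPS1 from 1.86 to 0.96 and of TSL1 from 2.01 to 1.11. There NTH1 went from 2.17 to 1.69 and ATH1 from 2.70 to 2.53. The ratio is a description of chosen genes, with no test. The rise over wild type in glucose, 0.46, 0.44 and 0.50 on the log2 scale for wild type in mannose and the deletion in glucose and in mannose, was 0.32, 0.20 and 0.39 with TSL1 left out.

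The make-up of the synthesis genes shifted. TPS1 held 43.0% and 43.9% of their summed counts per kb in wild type in glucose, 42.3% in wild type in mannose, 31.6% and 31.1% in the deletion in glucose and 36.7% in the deletion in mannose. TPS3 held 18.6% and 16.8%, 10.3%, 8.23% and 8.90%, and 3.00% in the same order. TPS2 went from 18.3% and 18.2% in wild type in glucose to 33.5% in the deletion in mannose, and TSL1 was highest in the deletion in glucose, at 32.4% and 33.8%. Among the trehalases NTH1 held the largest share in every library, from 59.5% and 60.8% in wild type in glucose to 72.2% in the deletion in mannose. NTH2 stood at 30.0% and 29.7% in the former and 11.6% in the latter, while ATH1 stood at 10.5% and 9.49% and then 16.2%.

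**Figure D3:**
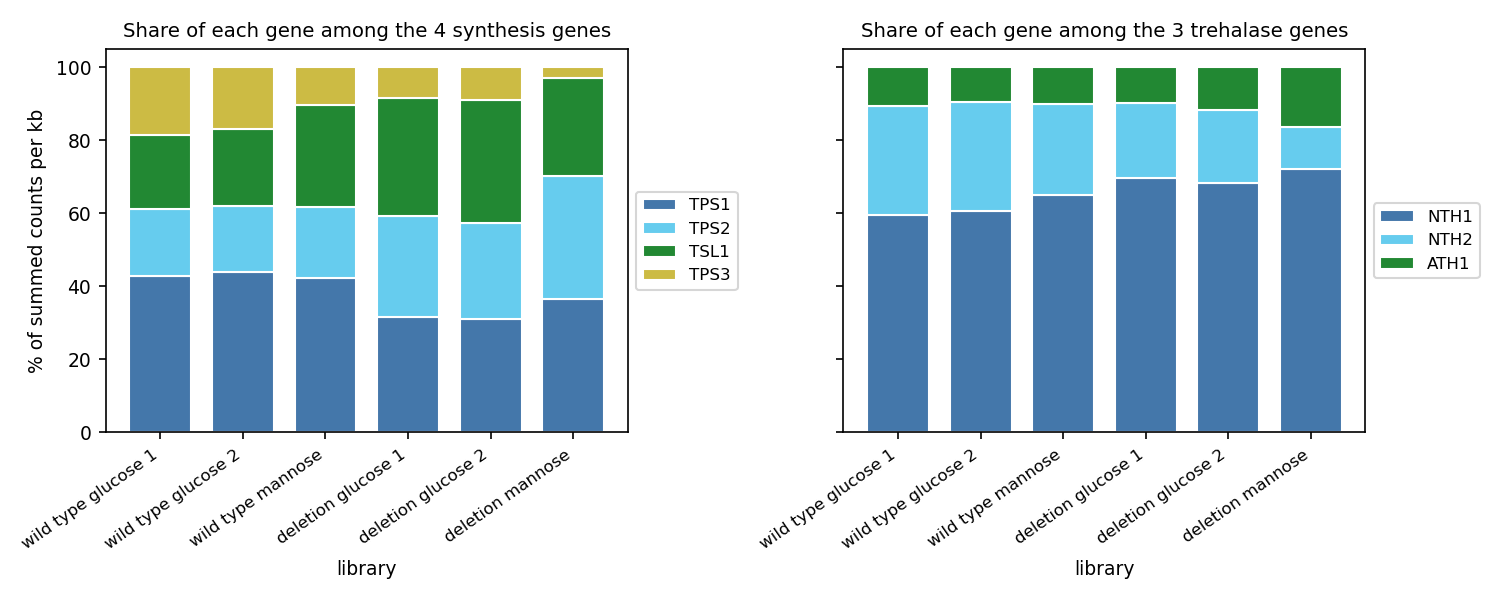
Share of each gene in the summed counts per kb of the 4 synthesis genes (left) and the 3 trehalase genes (right), in percent, 1 bar per library. The TPS3 and NTH2 shares are smallest in the deletion in mannose, at 3.00% and 11.6%.

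Whether the response to mannose differed with CYC8 was tested as the difference between both mannose effects, deletion minus wild type. Of the 7 genes 4 had a larger effect in the deletion and 2 a smaller one, against 29.7% of all genes called higher and 34.4% lower. ATH1 had the largest difference, 1.38 ± 0.15 (adjusted p = 4.77e-14), followed by NTH1 at 0.75 ± 0.13 (adjusted p = 3.46e-07), TPS1 at 0.66 ± 0.13 (adjusted p = 8.44e-06) and TPS2 at 0.61 ± 0.14 (adjusted p = 6.65e-05). TPS3 (−0.34 ± 0.13, adjusted p = 0.0149) and TSL1 (−0.33 ± 0.14, adjusted p = 0.0321) went the other way, and NTH2 was not called (0.25 ± 0.13, adjusted p = 0.0904). The call of TSL1 was lost without wild-type glucose replicate 1 (adjusted p = 0.181) or replicate 2 (adjusted p = 0.0618), and that of TPS3 without replicate 2 (adjusted p = 0.133). Upper-quartile factors took the higher share of all calls from 46.3% to 33.0% and the median of all genes from −0.08 to −0.32. Relative to that median TSL1 stood at −0.25 under both scalings. Without the GC and length trends the differences were 1.18 for ATH1, 0.47 for NTH1, 0.30 for TPS1, 0.37 for TPS2, −0.67 for TPS3 and −0.80 for TSL1.

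**Figure D4:**
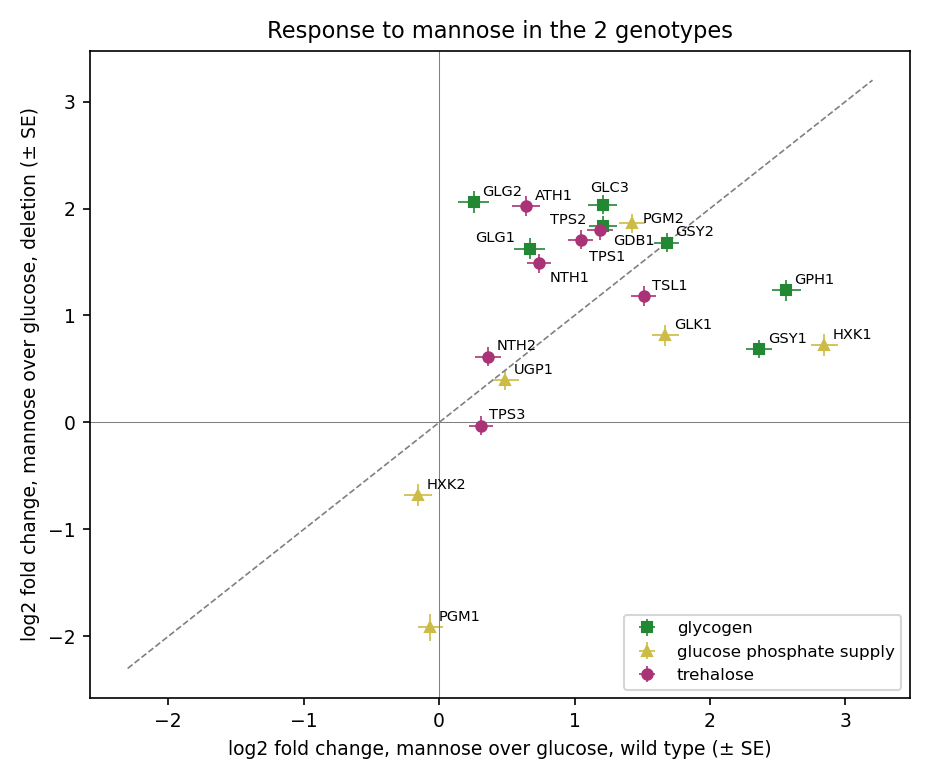
Log2 fold change in mannose in wild type (x axis) and in the deletion (y axis), each ± SE, for the trehalose genes, glycogen genes and genes of glucose phosphate and UDP-glucose supply. The dashed line marks equal effects: ATH1, NTH1, TPS1, TPS2 and NTH2 lie above it and TSL1 and TPS3 below.

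The groups had the same order for 6 of the 7 genes: lowest was wild type in glucose, next wild type after mannose, then the deletion in glucose, and highest the deletion in mannose. For TPS3 the last 2 did not differ beyond their spread. The share of all genes with this order was not counted, and each mannose group is 1 library. Between the middle groups, the deletion in glucose was higher for 6 genes, against 28.5% of all genes called higher and 34.2% lower, by 0.30 ± 0.10 for NTH2 (adjusted p = 0.00474) to 1.04 for TPS2, and TPS1 was the exception given above. This contrast was added after the values were seen.

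**Figure D5:**
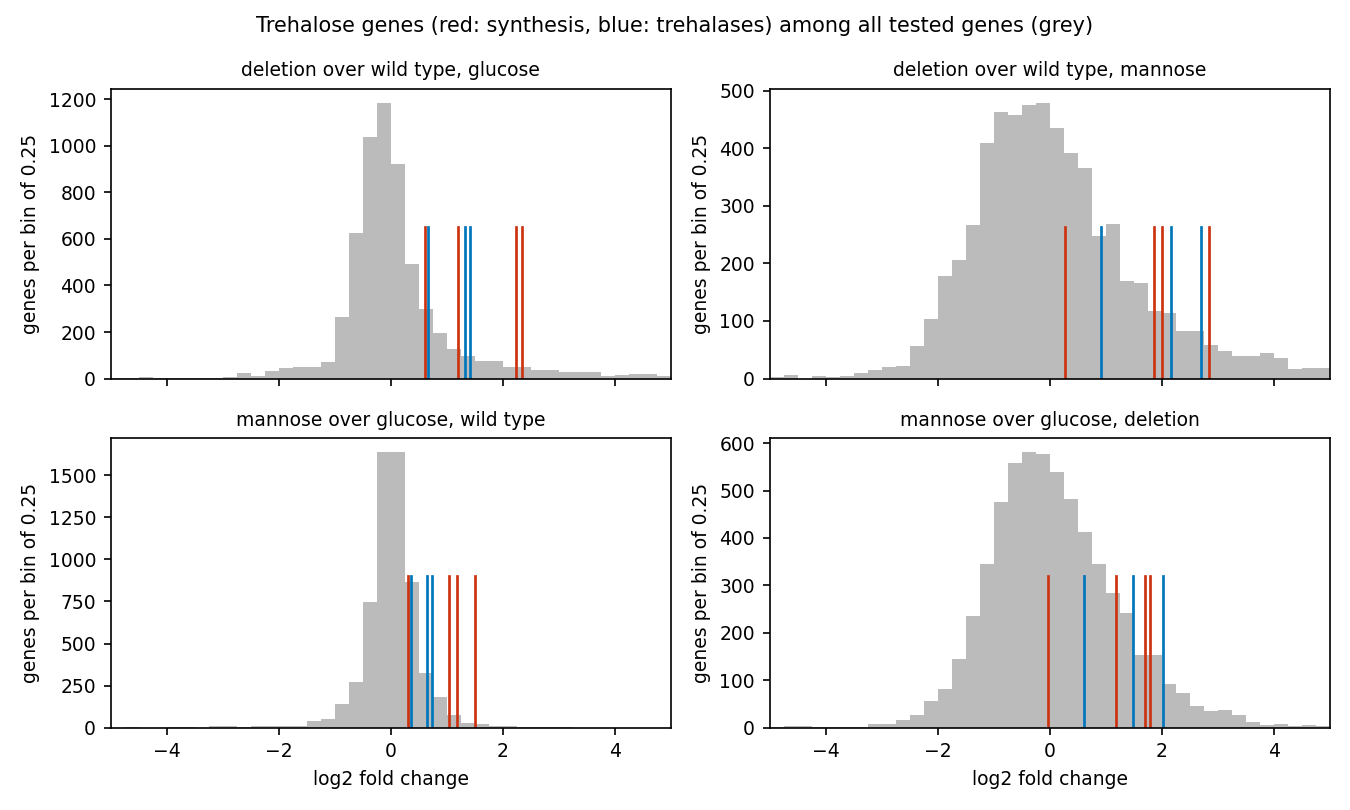
Histograms of the log2 fold change of all 6146 tested reading frames (grey, bins of 0.25, genes beyond the axis not drawn), with the 4 synthesis genes (red lines) and the 3 trehalase genes (blue lines). In wild type in mannose, where the grey distribution is narrowest, TSL1 lies at the 99.1 percentile and TPS2 at the 98.3 percentile of all changes; in the deletion in mannose the grey distribution is wider and ATH1 lies at the 94.1 percentile.

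Transcripts of enzymes that supply the substrates of Tps1 moved unevenly. Of 6 genes for hexose phosphorylation, phosphoglucomutase and UDP-glucose synthesis, 5 rose and 1 fell without CYC8 in glucose, where 30.1% of all genes were called higher and 37.8% lower. UGP1, for UDP-glucose pyrophosphorylase, rose by 2.62 ± 0.09 and the main phosphoglucomutase gene PGM2 by 3.27 ± 0.08. Of the genes that phosphorylate hexoses, HXK1 rose by 4.44, GLK1 by 3.69 and HXK2 by 0.66, while PGM1, for the minor phosphoglucomutase, fell by 1.19 on the log2 scale. In wild type in mannose 4 of the 6 rose, against 20.5% of all genes called higher and 16.9% lower: HXK1 by 2.84, GLK1 by 1.67, PGM2 by 1.43 and UGP1 by 0.49, with HXK2 at −0.15 and PGM1 at −0.06. In the deletion in mannose 4 rose and 2 fell, PGM1 by 1.92 and HXK2 by 0.68, against 37.6% of all genes higher and 39.7% lower. Between the genotypes in mannose 4 rose and 1 fell, against 38.3% higher and 41.1% lower.

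Glycogen, the other carbohydrate reserve, draws on the same UDP-glucose. All 7 of its genes rose without CYC8 in glucose (median 3.31), where 30.1% of all genes were called higher, and 6 of 7 in wild type in mannose (median 1.21), where 20.5% were. The glycogen phosphorylase gene GPH1, of breakdown, rose by 4.96 and 2.56 in these comparisons, and the synthase genes GSY1 by 3.99 and 2.36 and GSY2 by 2.80 and 1.68. The branching enzyme gene GLC3 rose by 3.92 and 1.21 and the debranching enzyme gene GDB1 by 3.31 and 1.21. The initiator gene GLG1 rose 2.39-fold and 1.59-fold, and its partner GLG2 rose 1.58-fold in the deletion and stood at 1.19-fold in wild type in mannose, not called. In the deletion in mannose all 7 rose (median 1.68), against 37.6% of all genes, as between the genotypes in mannose (median 2.80), against 38.3%.

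Transcripts for regulators of trehalase and of stress-induced transcription rose in 11 of 12 cases without CYC8 in glucose (median 0.72). In wild type in mannose 6 of 12 rose and MSN2 fell by 0.25 on the log2 scale (median 0.33). Over all genes 30.1% were called higher and 37.8% lower in the former comparison, and 20.5% and 16.9% in the latter. The largest rises in glucose were in MSN4, for the stress activator paralogous to Msn2, by 3.22 ± 0.08, and GIS1, for an activator of post-diauxic genes, by 2.05 ± 0.08. In wild type in mannose they were in DCS2 by 1.13 and DCS1 by 0.58. In the deletion in mannose 8 rose and 1 fell, against 37.6% of all genes higher and 39.7% lower, with DCS2 at 1.69 and RIM15, for a kinase of entry into stationary phase, at 1.32 as the largest rises and TPK3, for a catalytic subunit of protein kinase A, falling by 0.72. Between the genotypes in mannose 11 rose and 1, TPK3, fell, against 38.3% of all genes higher and 41.1% lower. There MSN4 rose by 2.52 and DCS2 by 2.47. In the interaction, where 29.7% of all genes were called higher and 34.4% lower, 1 supply gene was called higher and 4 lower, with HXK1 at −2.12 and PGM1 at −1.85. Of the glycogen genes 4 were higher, GLG2 (1.804), GLG1 (0.96), GLC3 (0.83) and GDB1 (0.63), and 2 lower, GSY1 (−1.68) and GPH1 (−1.33). Of the regulators 8 were higher and 2 lower, with RIM15 at 1.31 and TPK3 at −0.92.

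Genes whose profile over the 4 groups was most like that of TPS1 were SPR2, MRP8 and NDI1, the last for the internal NADH dehydrogenase of mitochondria. Their distances were 0.0981, 0.176 and 0.182, where the distance is Euclidean between group means of log2 CPM, each gene centred on its own mean, over 5226 genes with a symbol. For NTH1 they were GLG1 at 0.126, DCS1, whose product binds Nth1, at 0.173, and XKS1, for xylulokinase, at 0.221. Within the 7 genes NTH1 was nearest to TPS1 (0.381) and to ATH1 (0.445), TPS2 and TSL1 were nearest to each other (0.606), and so were TPS3 and NTH2 (0.571). With 4 groups, many genes lie near any profile.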

How the data were processed

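Processed files of 6 libraries were used. Per the labels' protocols, cells were lysed frozen, and TruSeq stranded libraries were made from total RNA after Ribo-Zero depletion. The deposited values are raw counts per open reading frame, without header. Tools named in the submitters' processing notes are TopHat2 2.0.9, Bowtie2 2.3.4.2 and CASAVA 1.8, and the build is sacCer3. Not given in the sources used here are the counting program, its annotation and strand option, and what became of multiply matching reads. A second deposited column of lengths equals codons minus 10 for each member. No annotated reading frame overlaps a member.

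The tests ran in edgeR 4.0.16 (R 4.3.3) after filterByExpr (550 of 6696 reading frames left out), TMM factors (0.868 to 1.08) and 1 mean per group over 6 libraries, with 2 residual degrees of freedom, 86.7 prior ones and a common coefficient of biological variation of 5.54%. Each SE was obtained by dividing the size of the log2 change by the root of its F statistic. Glucose replicates varied by more than counting error (chi-square per degree of freedom 12.0 and 24.4). Tested on simulated data, the deletion in glucose against wild type (6019 genes) recovered 56%, 94%, 100% and 100% of genes changed by 0.32, 0.58, 1 and 2 on the log2 scale, with 12 false among 187 calls. Mannose in wild type (6022 genes) gave 38%, 90%, 98% and 100%, with 6 false among 169. In both, only 50 genes were changed at each size. In the measured libraries 30.1% of genes were called higher and 37.8% lower in the deletion in glucose. Recovery and false calls with so large a share of genes changed were not tested.

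Alternatives were other scaling factors, DESeq2 1.42.0, no filter, a fixed coefficient of variation of 0.2, trends on GC content and coding length removed per library (splines with 4 degrees of freedom each, 5828 nuclear reading frames), each glucose replicate left out, and the replicate number as a block. Coding lengths, coordinates and upstream sequences are those of RefSeq R64. All members were named, as were genes of lists of 8 or fewer, the 2 largest rises and falls of longer lists, and the 3 genes of most like pattern. The members and lists were chosen with earlier results of these data known. Floors for 0 counts are 3 counts and cover counting error only.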

Additional observations from a re-analysis of the deposited data

Results flagged for a closer look

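The mannose effect differed between the genotypes for 6 of the 7 genes by the interaction test of edgeR, 4 higher and 2 lower, where 29.7% of all genes were called higher and 34.4% lower. A count near these shares says little about the 7 genes as a set. The difference, deletion minus wild type on the log2 scale, was 1.38 for ATH1, 0.75 for NTH1, 0.66 for TPS1 and 0.61 for TPS2, which rose more in the deletion. It was −0.34 for TPS3 and −0.33 for TSL1, which went the other way. Each mannose group is 1 library, so a property of either library and the effect of mannose cannot be told apart. With a fixed biological coefficient of variation of 0.2 only ATH1 was called (adjusted p = 0.0474).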

How the results depend on the processing

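All 7 genes kept their direction in glucose (deletion against wild type) and in wild type in mannose under every alternative run. The directions that reversed were those of TPS3 between the genotypes in mannose (−0.045 with upper-quartile factors, −0.14 with GC and length trends removed) and of TPS1 between the deletion in glucose and wild type in mannose (−0.11 with the trends removed), none called when reversed. A fixed biological coefficient of variation of 0.2 left 2 of 7 members higher in wild type in mannose (TPS2 and TSL1), 1 higher and 0 lower in the interaction, and 1 higher between the deletion in glucose and wild type in mannose. Over all genes it left 1491 calls in the deletion in glucose, 149 in wild type in mannose, 2496 in the deletion in mannose, 2820 between genotypes in mannose, 818 in the interaction and 1064 between the middle groups, against 4173, 2300, 4746, 4879, 3943 and 3858. DESeq2 called 1519 genes in wild type in mannose. Leaving out 1 glucose replicate gave 1516 to 2734 calls there (1516 without wild-type replicate 1 and 1520 without wild-type replicate 2), and 0 to 2 members lower in the interaction. In the deletion in mannose 1 member, TPS3, was called lower with upper-quartile factors or with the trends removed, where there were 0.

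The log2 rise of the synthesis to trehalase ratio over wild type in glucose, in the order wild type in mannose, deletion in glucose and deletion in mannose, was 0.32, 0.20 and 0.39 without TSL1, and 0.35, 0.16 and 0.43 for TPS1 and TPS2 over NTH1. It was 0.55 in the deletion in glucose with no division by length. In the deletion in mannose it was 0.61 without ATH1 and 0.25 as a mean of log2 values per gene. It was not taken with the GC and length trends removed. Changes of ratios between members do not depend on length. With the replicate number as a block, the 4 glucose libraries gave 7 of 7 members higher and 3921 calls in all. Differences between replicates correlated at −0.046 across genes between the genotypes. With a single difference per genotype, that value cannot show whether the numbers mark shared cultures or days. Why values moved was not tested, except that a larger fixed spread leaves less power by construction. Fewer libraries did not always give fewer calls. Without deletion glucose replicate 1, wild type in mannose had 1420 genes called higher and 1314 lower, against 1263 and 1037 with all libraries.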
